A study of Mus musculus with 11 samples.

Results

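The miRNA content of the oviduct without lipopolysaccharide (LPS, an outer membrane component of Gram-negative bacteria) was described in the 3 control mice of the series. All 566 mouse miRNA probes of the panel were examined, and a miRNA was called detected when its count lay above the mean plus 2 SD of the 8 negative probes of the lane in every control mouse. That held for 180 of 566 miRNAs. The samples were whole oviducts of female CD1 mice, an outbred stock, aged 6 to 8 weeks, collected 24 h after an intraperitoneal injection of 100 µL PBS given on the day of estrus. The PBS held LPS of E. coli serotype 055:B5 at 2 µg (low dose, 4 mice) or at 10 µg (high dose, 4 mice), and none in the control mice (0 µg, 3 mice). The study planned 4 mice per treatment; the other control mouse was not analysed here. The nCounter assay ligates a tag to each miRNA and counts single fluorescent barcodes, with no amplification and no reads. Since the oviduct was taken whole, fewer cells of a type and less of a miRNA per cell cannot be told apart.

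A miRNA is a short RNA that guides Argonaute proteins to messenger RNAs, mostly through its seed, the stretch that starts at the second base, and lowers the output of the messages it binds. Each is cut from a hairpin whose 5p and 3p arms can both give a mature miRNA, and paralogs with the same seed form a family. The oviduct wall is a mucosa of ciliated and secretory epithelium over stroma and smooth muscle. Families of known restricted expression, such as miR-34 and miR-449 in multiciliated cells, miR-200 in epithelia and miR-143/145 in smooth muscle, serve as markers. In a bulk sample they do not measure the number of cells.

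The mature sequences of the leading families are shown because members of a family share the seed and differ at few other bases. Seeds (bases 2 to 8) are in capitals, and all sequences are from RefSeq, build GRCm38.p6. The table held 129 of the 180 detected miRNAs, 32 under the probe's own name and 97 after the arm was added to an older name. They carried 85 different seeds, of which 23 were shared by more than 1 miRNA.
let-7c: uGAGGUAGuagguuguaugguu
let-7b: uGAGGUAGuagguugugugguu
let-7a: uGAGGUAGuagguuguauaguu
let-7f: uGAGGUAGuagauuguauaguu
let-7g: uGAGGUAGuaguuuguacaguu
let-7i: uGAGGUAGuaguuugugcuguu
let-7d: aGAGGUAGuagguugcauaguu
let-7e: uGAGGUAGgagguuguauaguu
miR-125b-5p: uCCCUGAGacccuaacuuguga
miR-125a-5p: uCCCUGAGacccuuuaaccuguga
miR-29a: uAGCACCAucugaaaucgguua
miR-29b: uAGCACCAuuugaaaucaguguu
miR-29c: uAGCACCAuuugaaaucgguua
miR-200b: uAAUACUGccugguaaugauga
miR-200c: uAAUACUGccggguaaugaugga
miR-200a: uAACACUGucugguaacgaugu
miR-141: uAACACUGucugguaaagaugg
miR-34b-5p: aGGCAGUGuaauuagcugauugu
miR-449a: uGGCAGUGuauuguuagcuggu
miR-34a: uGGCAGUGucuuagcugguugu
miR-99a: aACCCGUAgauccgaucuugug
miR-100: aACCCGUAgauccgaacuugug
miR-16: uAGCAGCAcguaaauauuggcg
miR-148a: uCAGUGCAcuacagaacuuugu
miR-135a: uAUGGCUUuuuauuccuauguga
miR-22: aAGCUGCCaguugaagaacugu
Counted from 1 at the 5′ end, let-7a and let-7f differed by G12A, let-7c and let-7b by A17G, let-7c and let-7a by G19A, miR-29a and miR-29c by C10U, and miR-99a and miR-100 by U16A. The pair miR-200b and miR-200c differed by U11G and A22G, and miR-200a and miR-141 by C17A and U22G. How far a probe also counts a close paralog was not tested.

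The control lanes held 631334, 500224 and 556095 miRNA counts in mice 1, 2 and 3, and the bounds were 57.1, 67.9 and 74.5 counts. Levels are given as the share of a lane's miRNA count. Probe efficiencies are not given in the sources used here, so an order between miRNAs is an order of counts. On a log2 scale the counts of the 180 detected miRNAs had a Pearson r of 0.990 to 0.995 between the 3 pairs of control mice, a description across miRNAs that share lane and probe.

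A few miRNAs made up most of the count. The 20 most abundant held 65.6% ± 1.2 of it (SD, n = 3). The leading 12, 13 and 13 miRNAs reached 50% of the lane in mice 1, 2 and 3. Between 54 and 58 miRNAs gave 90%. Of the 180 detected, 16 averaged over 10000 counts, 47 between 1000 and 10000, 61 between 200 and 1000, and 56 under 200. The detected set as a whole held 98.2%, 97.7% and 97.9%.

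miR-125b-5p, a miRNA that is widely expressed in muscle, stroma and epithelium, had 64149, 45499 and 53436 counts in control mice 1, 2 and 3, or 10.2%, 9.10% and 9.61% of the lane. It came first in all 3 mice, 1.75 to 1.82 times above the next miRNA. Its sequence lies at chr9:41581940-41581961 on the plus strand, within the span of the gene Mir100hg, and again at chr16:77646279-77646300 on the plus strand. The table gives gene spans only, so exon and intron cannot be told apart here.

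miR-145, with miR-143 the smooth muscle pair that targets regulators of the contractile state, followed with 5.72%, 4.99% and 5.50%. miR-29a, which targets collagen and other matrix messages, had 4.93%, 4.49% and 4.73%. miR-720 had 4.56%, 4.32% and 4.72%. These 3 and miR-125b-5p kept ranks 1 to 4 in every control mouse. miR-720 is an entry now regarded as a fragment of a transfer RNA; with the probes of the miR-1937 entries, likewise transfer RNA fragments, it came to 5.08%, 4.74% and 5.20% of the lane.

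miR-34c, a miRNA of multiciliated cells, had 4.33%, 3.13% and 3.50%. In counts as deposited it held rank 5 in mice 1 and 3 and rank 10 in mouse 2. From there on the order was less firm: of the 19 neighbouring pairs among the 20 most abundant miRNAs, 8 kept their order in all 3 mice and 11 did not. let-7c averaged 3.54% ± 0.23, let-7g 3.37% ± 0.19, miR-148a 3.29% ± 0.28 and miR-135a 3.23% ± 0.52 (SD, n = 3 each), and the differences between these neighbours lay within the spread between mice. Then came let-7d at 3.04%, let-7b at 3.00%, miR-143 at 2.81%, miR-16 at 2.66%, miR-29b at 2.55% and let-7a at 2.28% on average. miR-200c at 1.83%, miR-22 at 1.72%, miR-200b at 1.49%, miR-125a-5p at 1.43% and miR-29c at 1.42% closed the 20.

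**Figure D1:**
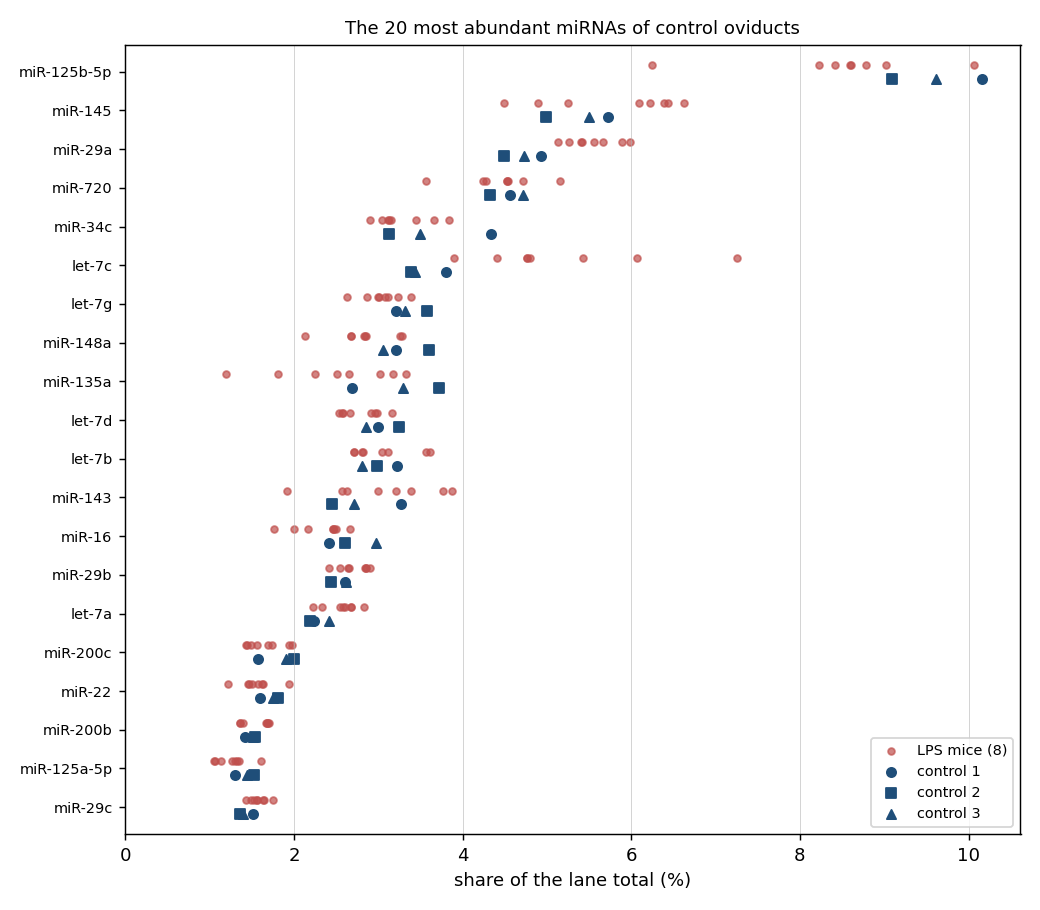
Share of the lane's miRNA count (x axis, percent) of the 20 miRNAs with the highest mean in control mice (y axis), with 1 point per mouse: the 8 LPS mice above and the 3 control mice below on each row. miR-125b-5p lies right of every other miRNA in the control mice, and on the let-7c and miR-29a rows all LPS points lie right of all control points.

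Among miRNAs with a sequence in the table, the 10 seed groups with the most counts held 58.8%, 59.7% and 59.6% of the lane. Their sum varied less between mice (SD 0.465 percentage points) than the sum of the 20 leading miRNAs (SD 1.15). For miR-34c, miR-30b, miR-30d and miR-23b no sequence was used here, which changes which groups lead. Counted by family name with these members, the miR-34 and miR-449 family (without the miR-34b-3p arm) averaged 4.59%, miR-30 2.36% and miR-23 1.83%, each above the group of miR-22, the last of the 10. The first of these 3 also lay above every seed group after that of miR-29, in counts as deposited. Most of its sum was miR-34c (3.65% on average), whose probe name carries a factor that no label explains. The product of that factor and the positive control POS_A was 2811, 2974 and 3015 counts in mice 1, 2 and 3, and was not subtracted here. miR-145 (5.40% on average), miR-720 (4.53%) and miR-143 (2.81%) also had no sequence here. miR-145 and miR-720 each lay above every seed group after that of miR-29, and miR-143 above that of miR-100.

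The seed GAGGUAG of the let-7 family, which restrains proliferation and Ras and Hmga2 messages, led with 18.7%, 18.9% and 18.3%. It had 10 detected carriers: let-7c, let-7g, let-7d, let-7b, let-7a, let-7i, let-7f, let-7e, miR-98 and miR-1961. No single member dominated. let-7i averaged 1.36%, let-7f 1.02%, let-7e 0.891% and miR-98 0.111%.

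CCCUGAG, the seed of miR-125b-5p and miR-125a-5p, gave 11.5%, 10.6% and 11.1%. AGCACCA, the seed of miR-29a, miR-29b and miR-29c, gave 9.05%, 8.28% and 8.74%. Both groups were highest in mouse 1 and lowest in mouse 2. The third listed member of the miR-125 family, miR-351, was not detected.

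Among the sequences held, the next groups were clearly lower than miR-29. AAUACUG (miR-200c, miR-200b and miR-429) averaged 4.09% ± 0.25, and AGCAGCA (miR-16, miR-15a, miR-15b, miR-322, miR-195 and miR-497, a family that slows the cell cycle) 4.04% ± 0.32. CAGUGCA (miR-148a, miR-152 and miR-148b) averaged 3.63% ± 0.26, and AUGGCUU, carried by miR-135a alone, 3.23% ± 0.52. ACCCGUA (miR-100, miR-99a and miR-99b) followed at 2.34% ± 0.08, AACACUG (miR-200a and miR-141) at 1.94% ± 0.12 and AGCUGCC (miR-22) at 1.72% ± 0.11 (SD, n = 3 each).

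A shared seed did not come with like counts, though the probes of a group can differ in efficiency. In the miR-15/16 group miR-16 was highest in all 3 mice, at 2.41%, 2.61% and 2.97%, and miR-497 lowest, at 0.0280%, 0.0276% and 0.0227%. Within the miR-26 group miR-26b exceeded miR-26a, whose counts were 261, 178 and 230. miR-92a, of the miR-25 family, was not detected, with 16, 19 and 13 counts.

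By first base, 77 of the 129 sequences (59.7%) began with U, the base that Argonaute binds best at the 5′ end. These 77 held 80.7%, 79.7% and 81.0% of the counts of the matched miRNAs. Among the 43 most abundant, 31 began with U, against 28 of the middle 43 and 18 of the lowest 43. The median GC content of the sequences was 40.9%, 45.5% and 47.6% in the same order.

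Of the smooth muscle list both members on the panel were detected, miR-145 (above) and miR-143 at 3.27%, 2.45% and 2.72%. Together they held 8.99%, 7.44% and 8.22%, the largest of the cell type sums. The lists name cell types in which a miRNA is known to be enriched, and some members also occur elsewhere.

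The epithelial list had 10 of 11 members detected and summed to 6.29%, 6.52% and 6.81%. The miR-200 family, which holds cells in the epithelial state by targeting Zeb1 and Zeb2, gave most of it, with miR-200c at 1.58%, 2.00% and 1.90% and miR-200b at 1.42%, 1.54% and 1.52%. miR-375, of secretory epithelium, averaged 0.242%, miR-205 0.180%, miR-96 0.0576% and miR-203 0.0205%. miR-183 averaged 0.0138%, while miR-182 of the same sensory and epithelial cluster was not detected, with 20, 26 and 20 counts.

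The ciliated list had 4 of 6 members detected, at 5.63%, 4.13% and 4.70% in sum. miR-34b-5p had 0.651%, 0.408% and 0.547%, and miR-34b-3p 0.270%, 0.221% and 0.283%. Both and miR-34c were lowest in mouse 2. miR-449a, a paralog at another locus, had 0.372%, 0.376% and 0.373% and did not follow them. miR-449b and miR-449c were not detected. miR-34a, the family member that p53 induces in many tissues, had only 184, 112 and 163 counts.

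Endothelial miRNAs (4 of 4 detected) summed to 0.859%, 1.14% and 0.966%, most of it miR-126-3p at 0.657%, 0.908% and 0.738%. The mesenchymal list (3 of 3) gave 1.68%, 1.98% and 1.65%, led by miR-199a-3p, whose mature sequence is also made by the miR-199b locus. Leukocyte miRNAs (6 of 6) summed to 0.706%, 1.01% and 0.883%, with miR-142-3p at 0.180%, 0.284% and 0.240%. Among them miR-155 averaged 0.0649%. Its probe name carries a factor whose product with the POS_A control exceeded its count in all 3 control mice, so its level would be at background if that product were subtracted.

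Erythroid miRNAs were the least even list. miR-451 had 0.187%, 0.641% and 0.363%, and miR-144, from the same cluster, 0.0356%, 0.0768% and 0.0619%. Both were lowest in mouse 1 and highest in mouse 2, as were miR-486, the endothelial sum and the leukocyte sum. That order was not particular to these lists: miR-135a, miR-200c, miR-22 and miR-125a-5p, among others, had it too. Nor did every list member follow it, since miR-221 was highest in mouse 1 and miR-150 and miR-142-5p were lowest in mouse 3. The part of blood retained in the tissue was not tested.

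None of 4 liver and pancreas miRNAs, 10 oocyte and early embryo miRNAs and 10 miRNAs of the testis-enriched X-linked cluster was detected. Of the neuronal list 2 of 8 were: miR-129-3p with 370, 217 and 242 counts, 3.19 to 6.48 times the bound, and miR-128 just above the bound. miR-124 and miR-9 were not detected. Of the striated muscle list 2 of 7 were detected, miR-1 at 0.155%, 0.172% and 0.153% (977, 862 and 853 counts, 11.4 to 17.1 times the bound) and miR-133a at 0.0374%, 0.0392% and 0.0288%, while miR-206, miR-208a, miR-208b, miR-133b and miR-499 were not. The smooth muscle, epithelial and ciliated lists thus led the cell type sums. Such a sum depends on the list and its probes, and the make-up of the tissue was not measured.

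**Figure D2:**
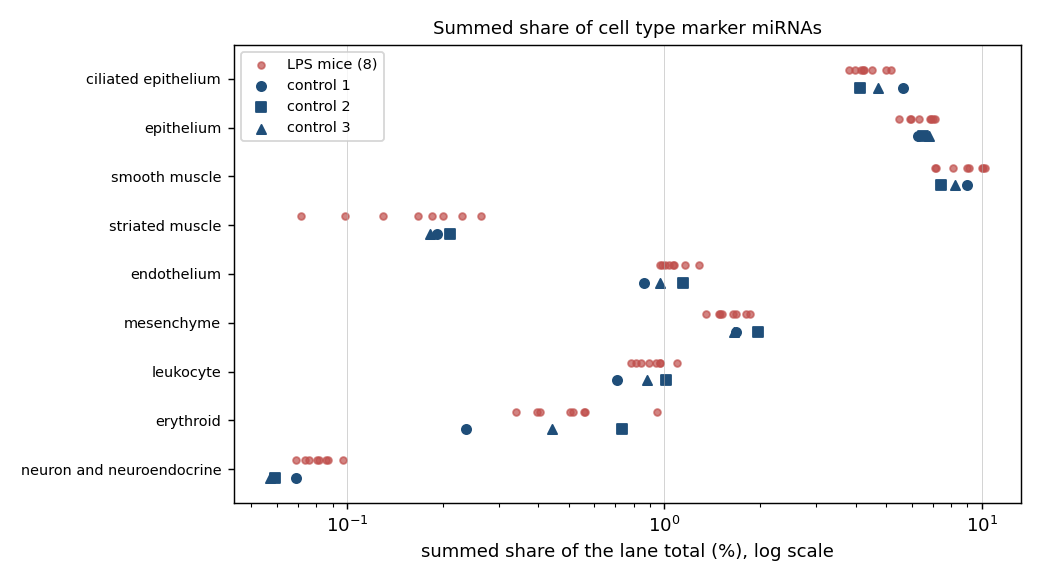
Summed share of the lane's miRNA count (x axis, percent, log scale) of the detected members of each cell type list (y axis), with 1 point per mouse, the 8 LPS mice above the 3 control mice on each row. Smooth muscle, epithelial and ciliated lists lie above 4% in the control mice, and the erythroid list spreads widest, between 0.236% and 0.737%.

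Among the 91 detected miRNAs with at least 500 counts on average, the median coefficient of variation (CV) of the share over the 3 control mice was 7.40%, against 2.17% that counting error alone would give. In 21 of them it was under 5%, and in 8 over 20%. Counting error is thus the smaller part of the spread for a typical abundant miRNA.

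The 5 most variable were miR-451 (CV 57.6%), miR-342-3p (50.7%), miR-196b (30.4%), miR-34b-5p (22.8%) and miR-210 (22.3%). miR-342-3p, of lymphoid cells, had 0.0535%, 0.172% and 0.159%, so that mouse 1 stood apart. miR-196b, encoded in a Hox cluster, had 0.0996%, 0.188% and 0.147%. miR-210, which hypoxia induces, had 0.157%, 0.09996% and 0.142%.

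The 5 least variable were miR-449a (CV 0.489%), miR-375 (1.05%), miR-1951 (1.76%), miR-142-5p (1.97%) and miR-130a (2.29%). The first 4 lay below the CV that counting alone gives (1.73% to 4.03% over the 5), which 3 values can do.

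**Figure D3:**
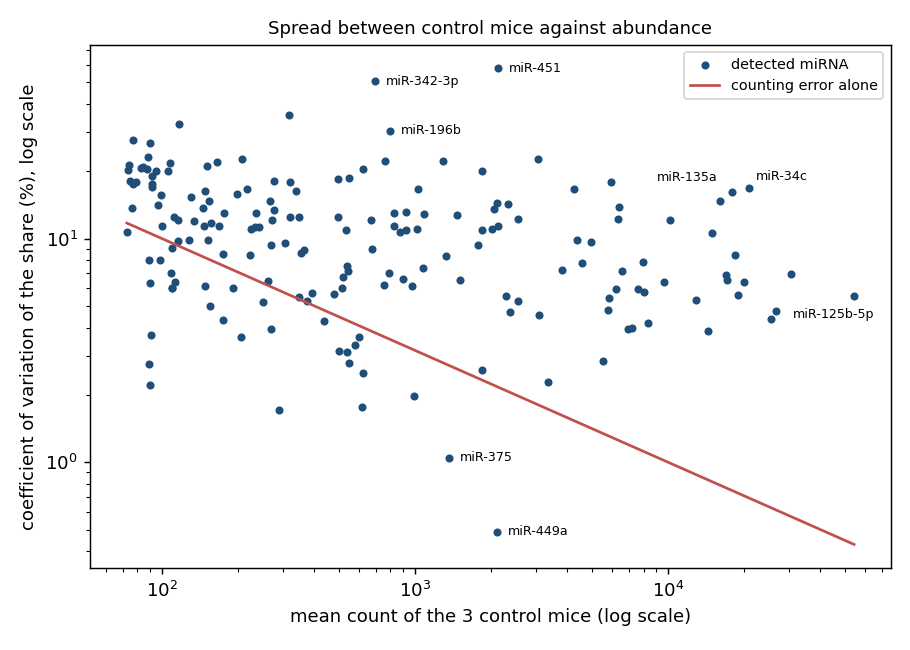
Coefficient of variation of the share over the 3 control mice (y axis, percent, log scale) against the mean count (x axis, log scale) for the 180 detected miRNAs, with the line that counting error alone would give. Abundant miRNAs lie mostly above the line, miR-451 at 57.6% is the most variable with at least 500 counts, and miR-449a at 0.489% the least.

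The panel held 65 hairpins with probes for both arms, of which 25 had at least 1 arm detected in the control mice. In 12 of these the 5p arm was higher and in 13 the 3p arm. Both arms were detected in 10.

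miR-125b-5p exceeded miR-125b-3p by 193, 178 and 187 times in mice 1, 2 and 3, the widest of the measured ratios. miR-125b-3p still had 333, 256 and 285 counts, well above the bound. miR-125b-5p has loci on chromosomes 9 and 16, and no sequence of miR-125b-3p was held here. The ratio therefore need not be that of a single hairpin. miR-125a-5p exceeded its 3p arm 29.4, 42.7 and 33.6 times, and miR-151-5p its 3p arm 13.2, 17.6 and 14.6 times. miR-340-5p stood at 6.99, 7.22 and 8.48 times, and miR-126-3p at 4.54, 5.06 and 4.34 times its 5p arm.

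Other hairpins gave like counts for both arms. miR-142-3p over miR-142-5p was 1.02, 1.58 and 1.39, miR-423-5p over miR-423-3p 1.26, 1.55 and 1.20, and miR-199a-3p over miR-199a-5p 1.27, 1.94 and 1.56. miR-34b-5p over miR-34b-3p was 2.41, 1.85 and 1.93. miR-202, a gonadal miRNA, had 75, 85 and 78 counts for 3p and 73, 82 and 75 for 5p, a ratio of 1.03, 1.04 and 1.04 just above the bound.

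In the other 15 hairpins the lower arm was not above the bound in all 3 mice. The ratio to the higher of that arm's count and the bound is then a lower limit in each mouse. miR-342-3p was at least 5.92, 12.7 and 11.8 times above its 5p arm, miR-188-3p at least 10.1, 7.34 and 6.53 times, and miR-450a-5p at least 10.8, 6.55 and 5.68 times. The remaining 12 had mean limits between 1.34 and 3.58.

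**Figure D4:**
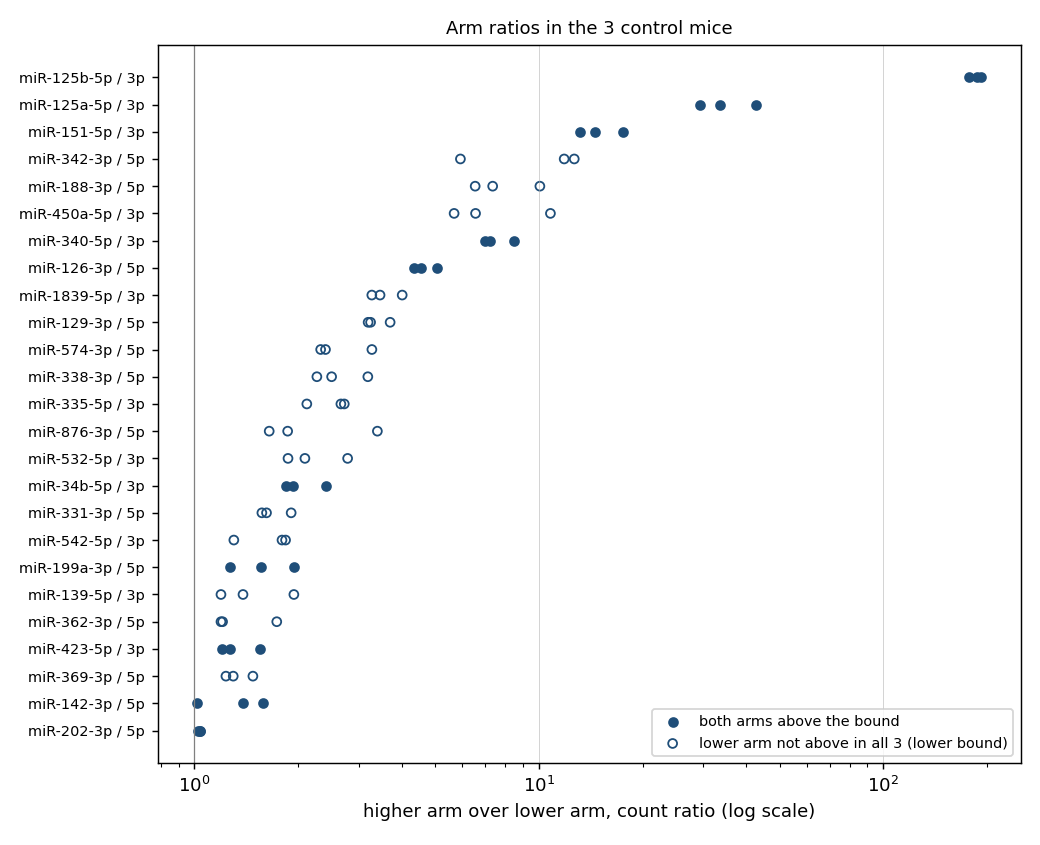
Ratio of the higher to the lower arm (x axis, log scale) for the 25 hairpins with at least 1 arm detected (y axis), with 1 point per control mouse. Filled points are measured ratios and open points lower limits; miR-125b lies alone near 190 and miR-202 at 1.

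Ratios within a lane need no scaling, and 39 paralog pairs and 22 pairs from shared gene clusters had both members detected. Over these and the 10 arm pairs, the median CV of the ratio between control mice was 11.4%. In 15 of the 71 pairs the members differed by more than 10 times, and in 15 by less than 1.5 times.

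let-7a over let-7f was 2.14, 2.26 and 2.28, let-7c over let-7b 1.18, 1.14 and 1.23, and let-7g over let-7i 2.46, 2.46 and 2.51. Each of these 3 let-7 ratios kept its direction in all 3 mice. miR-29a over miR-29c was 3.25, 3.30 and 3.39, and miR-29a over miR-29b 1.90, 1.84 and 1.81. miR-15a and miR-15b lay close together, at 1.09, 1.05 and 1.10.

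Other paralogs were far apart. miR-148a exceeded miR-148b 41.1, 49.0 and 38.3 times, miR-130a exceeded miR-130b 38.4, 28.0 and 35.2 times, and miR-27a exceeded miR-27b 21.4, 25.9 and 26.7 times. miR-26a had 0.145, 0.112 and 0.120 of the miR-26b count. miR-34a had 0.00672, 0.00715 and 0.00838 of the miR-34c count.

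Members of 1 cluster also gave unlike counts. miR-100, at chr9:41531437-41531458 on the plus strand in the same Mir100hg span as miR-125b-5p, had 0.117, 0.136 and 0.134 of the miR-125b-5p count, to which a second locus adds. miR-23a (chr8:84208563-84208583), miR-27a (chr8:84208727-84208747) and miR-24 (chr8:84208875-84208896) lie in a row on the plus strand. miR-23a over miR-27a was 1.30, 1.17 and 1.21, but miR-24 had only 0.0798, 0.0653 and 0.0757 of the miR-23a count, although a copy on chromosome 13 also makes it. miR-143 had 0.571, 0.492 and 0.494 of the miR-145 count, and miR-200a 1.34, 1.50 and 1.57 times the miR-429 count.

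With other rules between 156 (mean plus 3 SD) and 201 (highest negative probe) miRNAs were detected in place of 180. Of the 566 probes, 14 were above the bound of mean plus 2 SD in 2 control lanes, 23 in 1 and 349 in none. Of the 33 viral probes, which are directed at viral miRNAs, none was above it in all 3 control lanes and 1 in any. Just inside were miR-669a with 72, 69 and 77 counts, miR-128 with 66, 79 and 75, miR-381 with 64, 77 and 82, and miR-192 with 70, 80 and 75. Just outside were miR-376a with 151, 66 and 64 counts, miR-345-5p with 115, 65 and 96, miR-149 with 118, 62 and 92, and miR-92b with 121, 59 and 84. All 4 fell short in mouse 2.

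Of the 180, 145 were also above the bound in all 8 LPS lanes, and none was below it in all 8. No miRNA that missed the rule in control mice was above the bound in all 8 LPS lanes. The bounds were higher in LPS lanes, at 68.2 to 143 counts, against 57.1 to 74.5 in control lanes. Low dose mouse 4 had the highest bound, and only 146 probes were above it there. These counts thus depend on the lane bounds and do not measure a change in detection with LPS. The 15 detected in control mice but in at most 4 LPS lanes had at most 106 counts in any control mouse, among them miR-151-3p, with 53 to 90 counts in LPS mice and 106, 74 and 89 in control mice.

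Set against the LPS mice of both doses, the baseline order was largely kept. Between 17 and 19 of the 20 leading control miRNAs were among the 20 leading ones in each LPS mouse, against 19, 19 and 20 in control mice 1, 2 and 3. miR-125b-5p came first in 7 of 8 LPS mice, and let-7c in the other. In the edgeR quasi-likelihood test of both doses against control, 1 of the 20 passed, against 36 of 205 miRNAs tested (17.6%, 22 higher and 14 lower). Higher calls were 32 of 38 with upper quartile scaling, 31 of 42 with the 100 most abundant miRNAs, 15 of 15 with the positive controls and 18 of 19 with 3 mRNA probes. The median log2 change over the 205 was -0.02, and it became 0.15 with the positive controls and 0.21 with the mRNA probes.

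That 1 was let-7c, at 3.90%, 4.78% and 7.25% (lowest, median and highest) in the 8 LPS mice and at 3.80%, 3.39% and 3.44% in control mice 1, 2 and 3. All LPS mice lay above all control mice (log2 change 0.49 ± 0.13 SE, edgeR adjusted p = 0.0168). The call ended without control mouse 2 (adjusted p = 0.101, edgeR), without control mouse 3 (adjusted p = 0.0760, edgeR), without the low-count filter (adjusted p = 0.0587, edgeR) and with scaling to the positive controls (adjusted p = 0.0839, edgeR) or to Actb, Gapdh and Rpl19 (adjusted p = 0.0684, edgeR), at log2 changes of 0.44 to 0.70. miR-29a lay at 5.13%, 5.49% and 5.98% in LPS mice, against 4.93%, 4.49% and 4.73% in control mice, again without overlap, but did not pass (log2 change 0.19 ± 0.07 SE, edgeR adjusted p = 0.0949). miR-125b-5p stood at 6.24%, 8.60% and 10.1% in LPS mice, against 10.2%, 9.10% and 9.61% in control mice (log2 change -0.23 ± 0.11 SE, edgeR adjusted p = 0.154). miR-135a had the widest fold range of the 20 in LPS mice, at 1.19%, 2.58% and 3.33%, against 2.69%, 3.72% and 3.29% in control mice (edgeR adjusted p = 0.177).

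Of the summed shares of the 36 family and cell type lists, 10 did not overlap between LPS and control mice, 8 higher and 2 lower, where the single shares of 15.1% of the 205 tested miRNAs did not overlap. With counts scaled to the positive controls in place of shares only 3 lists did not overlap, the miR-101, miR-146 and miR-196 families. let-7 lay at 19.4%, 19.8% and 23.7% (lowest, median and highest) in LPS mice, against 18.7%, 18.9% and 18.3% in control mice. miR-29 lay at 9.34%, 9.92% and 10.1% in LPS mice, against 9.05%, 8.28% and 8.74% in control mice. The miR-26, miR-19, miR-101, miR-146 and miR-196 families were also higher, and miR-23 and miR-27 lower. In most of these not every member was without overlap, which does not show that the others stayed unchanged. In let-7 only let-7c and let-7f did not overlap singly, and let-7g averaged lower in LPS mice (3.04%) than in control mice (3.37%), as did let-7d and let-7e. Only miR-29a, miR-27a, miR-19a, miR-146a and miR-196b did not overlap in their families, whereas both members did not in miR-26 and miR-101. miR-29b, miR-29c, miR-27b, miR-19b and miR-146b overlapped, but each averaged in the direction of its family's sum. miR-196a overlapped narrowly, at 0.02903% in the lowest LPS mouse against 0.02919% in control mouse 2. It passed as higher (log2 change 1.06 ± 0.29 SE, edgeR adjusted p = 0.0248). In the miR-23 family miR-23a alone did not overlap, at 0.787%, 0.905% and 1.03% (lowest, median and highest) in LPS mice, against 1.32%, 1.30% and 1.22% in control mice. miR-23b overlapped, at 0.508%, 0.596% and 0.790% in LPS mice, against 0.578%, 0.537% and 0.533% in control mice. The neuronal list, with 2 of 8 members detected, was separated only by 0.06912% in the lowest LPS mouse against 0.06906% in the highest control mouse, and each of the 2 overlapped singly. The smooth muscle list (7.11%, 9.03% and 10.2% in LPS mice), the epithelial list (5.48%, 6.58% and 7.10%) and the ciliated list (3.82%, 4.25% and 5.16%) overlapped the control mice.

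None of the 71 within-lane ratios passed an exact permutation test of 8 LPS against 3 control mice, with the smaller tail doubled for a two-sided p, after Benjamini-Hochberg adjustment over all 71. In 27 the unadjusted p was under 0.05. So doubled, the smallest p is 0.0121, which 16 pairs reached (22.5% of the pairs, those without overlap) and which the adjustment turns into 0.0538. Whether any pair passes rests on the doubling. The pairs were also chosen with earlier results of these data known, so neither form of the p is independent support. With the two-sided p taken from the absolute difference, a setting chosen after seeing the data, 13 of the 71 pairs (18.3%) reached the smallest exact permutation p of 0.00606 and passed (adjusted p = 0.0331), all of them among the 16. The exceptions were let-7a over let-7f, let-7g over let-7i and miR-146a over miR-146b. Among the 16, miR-221 over miR-222 was 0.415, 0.651 and 0.935 (lowest, median and highest) in LPS mice, against 1.71, 1.50 and 1.30 in control mice. miR-30b over miR-30c was 0.491, 0.646 and 0.966 in LPS mice, against 0.358, 0.273 and 0.329 in control mice. miR-24 over miR-23a was 0.112, 0.141 and 0.166 in LPS mice, against 0.0798, 0.0653 and 0.0757 in control mice. miR-126-3p over miR-126-5p, the arm ratio of the endothelial hairpin, was 2.17, 3.30 and 3.79 in LPS mice, against 4.54, 5.06 and 4.34 in control mice.

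The ratio that set miR-125b-5p above its other arm overlapped between the groups, at 167, 188 and 205 in LPS mice, against 193, 178 and 187 in control mice (exact permutation p = 0.691, n = 8 and 3). So did miR-34b-5p over miR-34b-3p, at 1.85, 2.14 and 2.47 in LPS mice, against 2.41, 1.85 and 1.93 in control mice (exact permutation p = 0.667, n = 8 and 3).

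**Figure D5:**
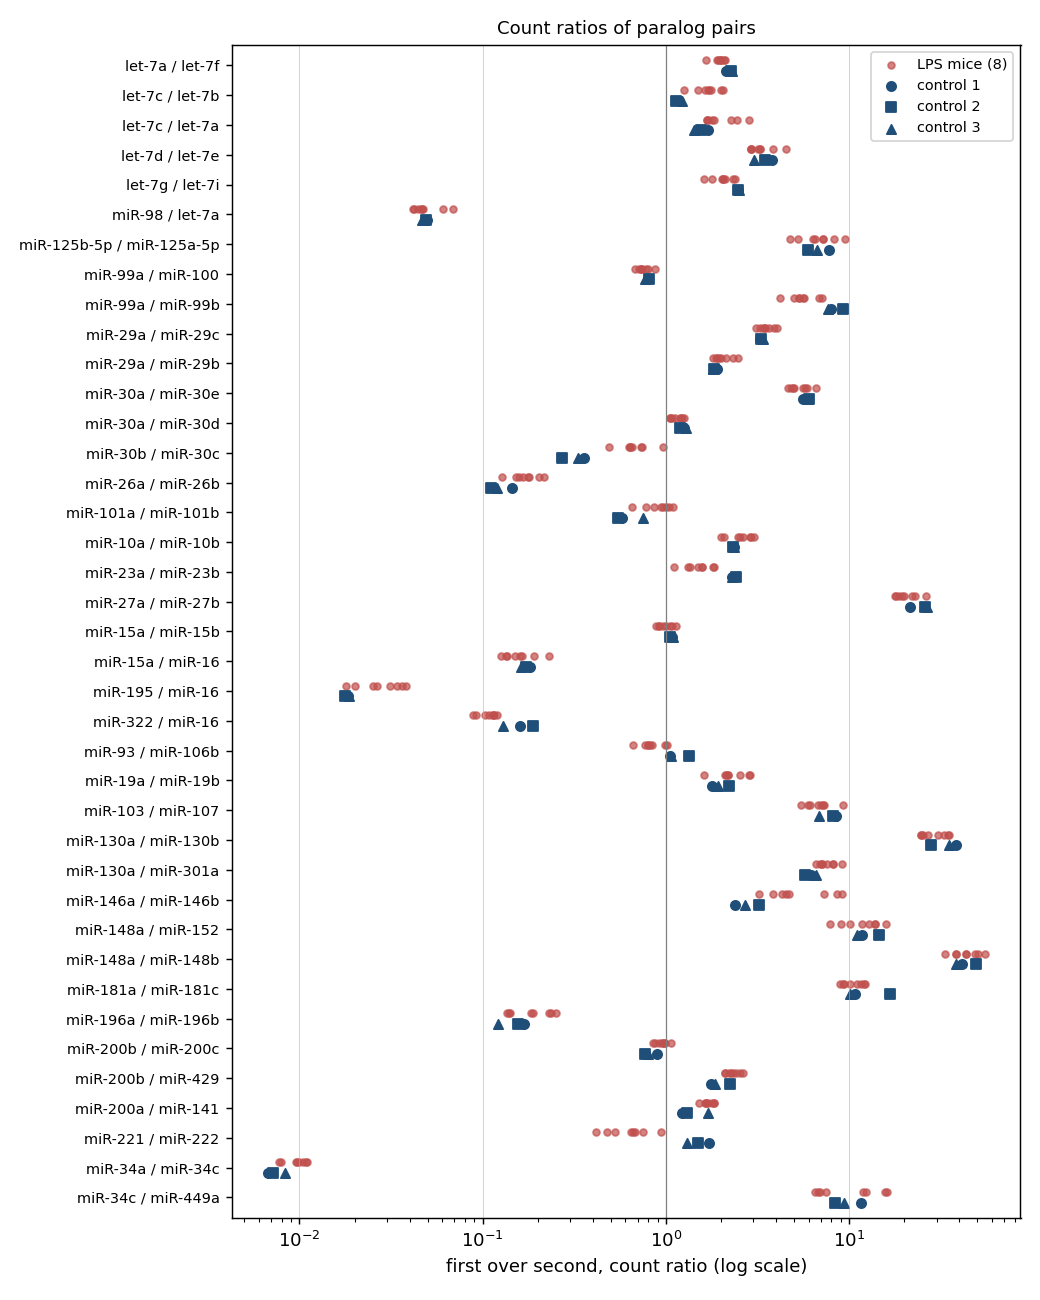
Count ratio of the first to the second member (x axis, log scale) for the 39 paralog pairs with both members detected (y axis), with 1 point per mouse, the 8 LPS mice above the 3 control mice on each row. Control points lie close together on most rows, and on the miR-221 / miR-222 and miR-30b / miR-30c rows the LPS points are apart from the control points.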

How the data were processed

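The deposited table of the whole series gave barcode counts per probe and mouse. They were handled as estimated counts, as deposited by the authors, since a lane quality value with decimals stands in the same columns; all probe values were whole. The file headers record no normalization and name no counting software. Names of 4 probes carry a factor, and no header or label explains it. Shares were taken over all 566 mouse miRNA probes. The control profile, the lists, the pairs and the rule for named miRNAs were chosen with earlier results of these data known. The rule named the 20 most abundant miRNAs, 10 leading seed groups, arm, paralog and cluster pairs, list members, 4 miRNAs on either side of the bound, and the 5 most and 5 least variable at 500 counts or more; miR-351, miR-92a, miR-182 and miR-151-3p were named after their values were seen. LPS (both doses averaged) was set against control with edgeR 4.0.16 (R 4.3.3), TMM factors over the 205 miRNAs above the bound in at least 3 lanes, and Benjamini-Hochberg adjustment at 0.05. On simulated counts, the fit recovered 100% of changes of 1 and 85% of changes of 0.5 log2 units among 205 miRNAs. The simulation gave every miRNA the same spread, while the CV of control shares reached 57.6% for miR-451. Recovery in these lanes can therefore be lower. Log2 ratios were tested with exact permutations, the two-sided p being the smaller tail doubled. Summed shares have no p, since the lists were chosen with results known. The pairs were chosen in the same way, which limits the p of the ratios. Each mouse was 1 sample. Same-numbered mice of different groups were separate animals.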

Additional observations from a re-analysis of the deposited data

Results flagged for a closer look

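In groups of 4 LPS mice, 17 of 254 sets of values had 1 mouse far from the other 3 by Dixon's test, where chance flags about 1 in 20. The flags were thus near the chance rate. Some sets also share miRNAs, such as miR-200b, miR-200c and their family sum. Control groups of 3 were not tested. Low dose mouse 1 had a smooth muscle sum of 7.11%, below 10.0% to 10.2% in the other 3, with a sum of miR-200b, miR-200c and miR-429 of 4.30%, miR-200c at 1.94% and miR-200b at 1.69%, each the highest of its group. Its ratios of miR-30b to miR-30c (0.491) and of miR-221 to miR-222 (0.475) were the lowest of its group. In the other low dose mice, miR-29b was lowest in mouse 2 (2.64%), let-7g over let-7i highest in mouse 3 (2.33), miR-100 over miR-125b-5p lowest in mouse 3 (0.107) and miR-93 over miR-106b highest in mouse 4 (1.01). In high dose mice, mouse 1 had the highest miR-10 sum (0.861%) and the lowest miR-106b over miR-25 (0.146), and mouse 2 the highest miR-200b (1.71%). Mouse 3 had the lowest miR-200a over miR-141 (1.52) and miR-183 over miR-96 (0.155), and mouse 4 the lowest miR-30 sum (2.33%) and miR-200a over miR-429 (1.66).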

How the results depend on the processing

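The 180 detected miRNAs became 156 with mean plus 3 SD, 201 with the highest negative probe, 184 without that probe, 194 with 2 of 3 lanes, and 180 to 187 without each control mouse. The 20 leading miRNAs, at 65.6% of the lane, held 67.1% after the mean of the negative probes was subtracted and 67.0% over the detected probes alone, and the 10 leading seed groups, at 59.4%, held 60.6% under both. The subtraction moved 18 of the 71 control ratios by more than their SD and turned none. With the name factor times POS_A subtracted, miR-34c averaged 3.15%, against 3.65% as deposited. Scaling to the positive controls in place of shares gave a median CV of 21.1% between control mice, against 7.40%, and left 3 of the 10 lists without overlap; no list of the 10 changed direction. The 16 pairs without overlap kept their direction in all 13 alternatives to the values. With a two-sided p by the absolute difference, added after seeing the data, 13 pairs passed, against 0 with the doubled tail. The 36 edgeR calls became 15 with scaling to the positive controls, 19 with Actb, Gapdh and Rpl19, and 24 to 48 without single mice (24 without control mouse 2, 48 without high dose mouse 1). Of the 20 leading miRNAs, 1 passed, against 0 with either of these scalings (unadjusted p under 0.05 in 43 and 44 of 205) or without the filter, 2 with upper quartile scaling, with the 100 most abundant miRNAs or with miRNAs above the bound in all 11 lanes, and 0 to 3 without single mice. Same-numbered mice had a median r of -0.036 (-0.284 to 0.403, 10 pairs), against 0.032 in the other 30 pairs. The numbers thus gave no sign of pairing, which so few pairs cannot exclude. With the number as a replicate block 27 miRNAs and 0 of the 20 passed, with let-7c at a log2 change of 0.41 (edgeR adjusted p = 0.0530). The cause of these changes was not tested. Low counts limit miRNAs near the bound: 56 of the 180 averaged under 200 counts. By the doubled tail, no ratio passed without any single mouse. Fewer mice also raise the smallest p the test can give, so this says little about single mice.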
